A study of Mus musculus with 6 samples.

Results

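The insulin-like growth factor (IGF) axis was followed through 10 genes: the ligands Igf1 and Igf2, the receptors Igf1r and Igf2r, the binding proteins Igfbp3, Igfbp4, Igfbp5 and Igfbp7, and the receptor adaptors Irs1 and Irs2. They were taken by symbol from the 51912 genes listed in each count table, and all 10 were found. RNA had been sequenced from GFP-positive cells sorted at E10.5 from the aorta-gonad-mesonephros (AGM) of mouse embryos, the region around the dorsal aorta where haematopoietic stem cells first arise. All embryos were of the MacGreen strain (Csf1r-EGFP), in which the Csf1r promoter drives the green reporter, so that macrophages and some of their precursors are green. All samples had the same collagenase step of 45 minutes at 37 degrees C. No other allele or treatment is named in the labels. The GFP-positive cells were split by surface CD206, the mannose receptor that marks a subset of macrophages, into GFP+CD206- cells (CD206neg) and GFP+CD206+ cells (CD206pos). Each of 3 litters gave 1 library of each population, and a library held cells pooled from 3 to 5 AGM.

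IGF1 and IGF2 are small secreted hormones related to insulin. Both signal growth and survival through the tyrosine kinase receptor encoded by Igf1r, whose activated form recruits the adaptors IRS1 and IRS2 and turns on the PI3 kinase and Akt pathway. The receptor encoded by Igf2r carries IGF2 to the lysosome for degradation and also sorts lysosomal enzymes that bear mannose 6-phosphate. Secreted binding proteins hold the ligands and limit or prolong their access to the receptor. Igf2 is an imprinted gene of fetal growth, and Igf1 is a product of many tissue macrophages.

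The ligand genes are paralogs, so their coding sequences are shown here to make plain how far reads of one can be told from reads of the other. The stretches below are the most similar 150 columns of an alignment of the coding sequences (GENCODE M21, GRCm38), which run from the B region across the short C region into the A region of the mature hormones, and capitals mark bases identical in both. The Igf1 stretch covers coding bases 102 to 249 of 498 and lies on the plus strand of chromosome 10 in 2 coding exons (87864817 to 87864887 and 87913619 to 87913695). The Igf2 stretch covers coding bases 120 to 255 of 576 and lies on the minus strand of chromosome 7 in 2 coding exons (142655654 to 142655724 and 142654384 to 142654448).
Igf1: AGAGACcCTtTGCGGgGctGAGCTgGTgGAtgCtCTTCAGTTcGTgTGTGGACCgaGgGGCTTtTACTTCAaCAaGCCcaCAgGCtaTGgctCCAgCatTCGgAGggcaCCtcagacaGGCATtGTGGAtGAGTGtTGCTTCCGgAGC
Igf2: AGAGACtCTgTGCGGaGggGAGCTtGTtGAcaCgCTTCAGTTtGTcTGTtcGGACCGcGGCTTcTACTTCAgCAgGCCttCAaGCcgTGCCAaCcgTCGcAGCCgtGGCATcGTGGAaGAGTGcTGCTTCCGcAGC
In this stretch 103 of the 150 columns (68.7%) were identical, and over the whole alignment 66.0% of the 456 columns with a base in both genes were. The longest exact run shared by any annotated Igf1 and Igf2 transcript was 19 bases. The longest such run was 22 bases among the 4 binding protein genes (Igfbp3 and Igfbp5) and 21 bases between Irs1 and Irs2. Between Igf1r and the insulin receptor gene Insr it was 43 bases.

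Levels are given as CPM, a gene's reads relative to all reads in genes of the library, adjusted between libraries by TMM. Levels of different genes are compared as TPM, which divides by the length of each gene's exons. Groups were compared with edgeR's quasi-likelihood test over 12668 genes, and a gene was called at a Benjamini-Hochberg adjusted p under 0.05. Folds were taken between group means of scaled CPM, and log2 fold changes are CD206pos over CD206neg, above 0 where CD206pos was higher. Libraries held between 16730846 and 18214283 reads in genes, so that 3 reads, the most that a count of 0 allows, stand for 0.165 to 0.179 CPM. Mrc1, which encodes CD206 and so checks the sort, had a mean level of 1583 CPM in CD206pos against 93.7 CPM in CD206neg (adjusted p = 0.00084 by edgeR). Of 10 macrophage markers all were detected in every library and 6 were higher in CD206pos, led by the complement genes C1qa, C1qc and C1qb (5.35-fold, 3.80-fold and 3.12-fold) and by Adgre1 (3.67-fold), which encodes F4/80, with 0 called without litter 2. The blood progenitor and granulocyte markers were largely in CD206neg, where their summed level was 2739 to 3461 CPM against 38.4 to 116 CPM in CD206pos, and 9 of the 9 tested were called lower in CD206pos. Limma-voom called 5 of these 9 (Cd34, Flt3, Kit, Mpo and Prtn3), 6 to 8 were called without any one library, and Kit alone was called without litter 2. The 2 libraries of litter 3 stood apart for mesenchymal stroma markers, with summed levels of 96.0 CPM (CD206neg) and 74.9 CPM (CD206pos) against 4.69 to 14.7 CPM in the other 4 libraries.

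The ligand genes changed in opposite directions. In CD206pos Igf2 fell and Igf1 rose, the binding protein gene Igfbp4 rose, and no receptor or adaptor gene was called. In counts, 3 of the 10 genes were called, 2 higher and 1 lower, where 4.87% of all genes tested were called, 2.97% higher and 1.90% lower. Igfbp5, Igfbp7 and Irs1 had too few reads for the filter and were not tested, and 4 of the 7 tested genes had groups that did not overlap, against 24.6% of all genes tested. In bulk RNA, fewer cells with a transcript and less of it per cell cannot be told apart.

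**Figure D1:**
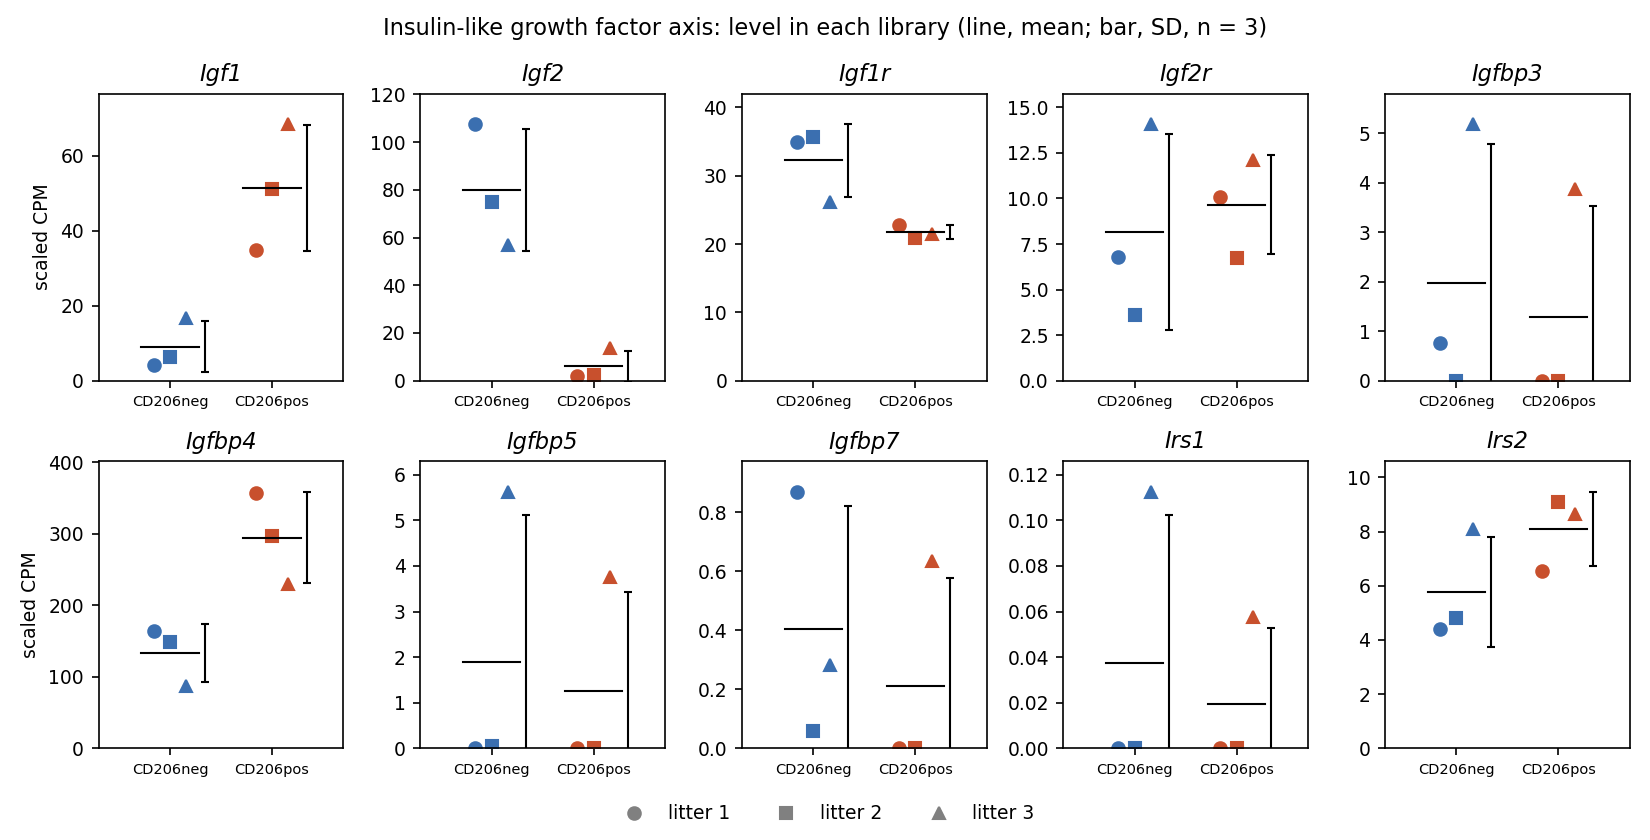
Scaled CPM of the 10 genes in each library, with the population on the x axis, symbols for litters 1 to 3, the mean as a line and the SD as a bar (n = 3). The populations are fully apart for Igf1, Igf2, Igf1r and Igfbp4, and Igfbp3 and Igfbp5 are high only in the libraries of litter 3.

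Igf1 (ENSMUSG00000020053.18, GRCm38 chromosome 10, 87858265 to 87937042, plus strand) rose in CD206pos. In litters 1, 2 and 3 CD206neg cells held 4.08, 6.30 and 16.8 CPM of Igf1, whereas CD206pos cells held 34.8, 51.0 and 68.3 CPM. The lowest CD206pos library lay above the highest CD206neg library, and litter 3 had the highest level in both populations. The means were 9.05 ± 6.78 and 51.4 ± 16.8 CPM (SD, n = 3), a 5.68-fold rise (log2 fold change 2.50 ± 0.52, SE; adjusted p = 0.032, edgeR). Within litters 1, 2 and 3 Igf1 was 8.53-fold, 8.09-fold and 4.07-fold higher in CD206pos. The call for Igf1 was lost without any one library other than CD206neg replicate 3 (adjusted p between 0.052 and 0.16) and without litter 1 or 2 (adjusted p = 0.092 and 0.34). Without CD206neg replicate 3 the log2 fold change of Igf1 was 3.31 (adjusted p = 0.012).

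Igf2 (ENSMUSG00000048583.16, GRCm38 chromosome 7, 142650766 to 142666816, minus strand) went the other way. CD206neg cells held 107.5, 74.7 and 57.1 CPM in litters 1, 2 and 3, and CD206pos cells of the same litters held 1.83, 2.57 and 13.5 CPM. Every CD206pos library lay below every CD206neg library, and the 3 CD206pos libraries held 30, 45 and 234 Igf2 reads. The fall was 13.4-fold, from 79.8 ± 25.6 to 5.97 ± 6.54 CPM (SD, n = 3), and the log2 fold change was -3.74 ± 0.71 (SE; adjusted p = 0.023, edgeR). The size of the difference in Igf2 varied by litter, at 58.7-fold, 29.0-fold and 4.22-fold in litters 1, 2 and 3. Without litter 3 the log2 fold change of Igf2 was -5.39 (adjusted p = 0.0061), and without CD206pos replicate 3 alone it was -5.20 (adjusted p = 0.0034). The call was lost when any other library was left out (adjusted p from 0.051 to 0.11) and without litter 1 or 2 (adjusted p = 0.13 and 0.26).

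The antisense gene Igf2os shares 98 exonic bases with Igf2, 1.71% of its length, and reads there were not counted for either gene. Igf2os itself had 1 read in the 6 libraries.

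The summed markers of blood progenitors and granulocytes, of endothelium and of epithelium were also lower in CD206pos. In litters 1, 2 and 3 the blood progenitor and granulocyte sum was 2739, 3264 and 3461 CPM in CD206neg. In CD206pos it was 116, 101 and 38.4 CPM. Its largest member in CD206neg was Mpo (1493, 1972 and 2277 CPM), and members differed in their order over litters. Gata2 of the same list was at 31.1, 27.9 and 15.1 CPM there. The endothelium sum was 263, 157 and 160 CPM in CD206neg and 76.4, 63.1 and 95.0 CPM in CD206pos. The epithelium sum was 15.7, 11.4 and 29.5 CPM in CD206neg and 1.65, 2.00 and 8.32 CPM in CD206pos. The blood progenitor and granulocyte markers were lower in CD206pos, as given above, among them Cd34, a surface sialomucin of blood progenitors and endothelium, which fell 15.3-fold from 583 ± 133 to 38.0 ± 17.2 CPM (SD, n = 3). Mpo, the peroxidase of granulocyte precursors, fell 106-fold, and the granule protease gene Prtn3 fell 13.0-fold. Kit, the receptor for stem cell factor, had 0 reads in all 3 CD206pos libraries, as did the granulocyte calcium-binding protein genes S100a8 and S100a9. The 8 endothelial markers summed to 157 to 263 CPM in CD206neg and 63.1 to 95.0 CPM in CD206pos. In edgeR's test 0 of those 8 were called, with 4 at an unadjusted p under 0.05. DESeq2 and edgeR with the stricter filter called 3 lower (Egfl7, Pecam1 and Tek). Limma-voom and library totals as the only scaling called Pecam1, the looser filter called Tek and the fit with the litter as a block called Egfl7 and Tek. Without CD206pos replicate 3 Emcn, Esam and Tek were called, and without litter 3 Esam was. Kdr and Emcn had no read in CD206pos replicate 1, nor did Cdh5. Of the 8 endothelial markers, 5, 4 and 0 had no read in CD206pos replicates 1, 2 and 3. Cldn5 went the other way in litter 3, at 9.65 CPM in CD206pos replicate 3. It was at 1.96, 1.79 and 2.59 CPM in CD206neg and had no read in CD206pos replicates 1 and 2. Of 4 epithelial markers, which summed to 11.4 to 29.5 CPM in CD206neg and 1.65 to 8.32 CPM in CD206pos, edgeR called 0 of the 2 tested. Krt18 alone had an unadjusted p under 0.05, DESeq2 called it lower and limma-voom called 0. Globin and other erythroid markers summed to 1.71 to 3.23 CPM in all libraries. Reads that map to several places were not counted, so this sum does not show that erythroid RNA was absent. The part of these cells in the Igf2 difference was not tested.

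Per length the ligands could be set side by side. Igf2 was at 58.0, 42.2 and 32.0 TPM in CD206neg and at 0.888, 1.36 and 6.95 TPM in CD206pos (litters 1, 2 and 3). Igf1 was at 1.27, 2.06 and 5.44 TPM in CD206neg and at 9.75, 15.6 and 20.3 TPM in CD206pos. As a share of the summed TPM of both ligands, Igf1 made up 2.15%, 4.65% and 14.5% in CD206neg and 91.7%, 92.0% and 74.5% in CD206pos. The leading ligand transcript was Igf2 in all 3 CD206neg libraries and Igf1 in all 3 CD206pos libraries. The summed level of both ligands was 47.0 ± 11.2 TPM in CD206neg and 18.3 ± 8.39 TPM in CD206pos (SD, n = 3), and the libraries did not overlap. These shares and sums are descriptions without a test, and they rest on exon lengths summed over all isoforms of a gene (9904 bases for Igf1, 5723 bases for Igf2).

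**Figure D2:**
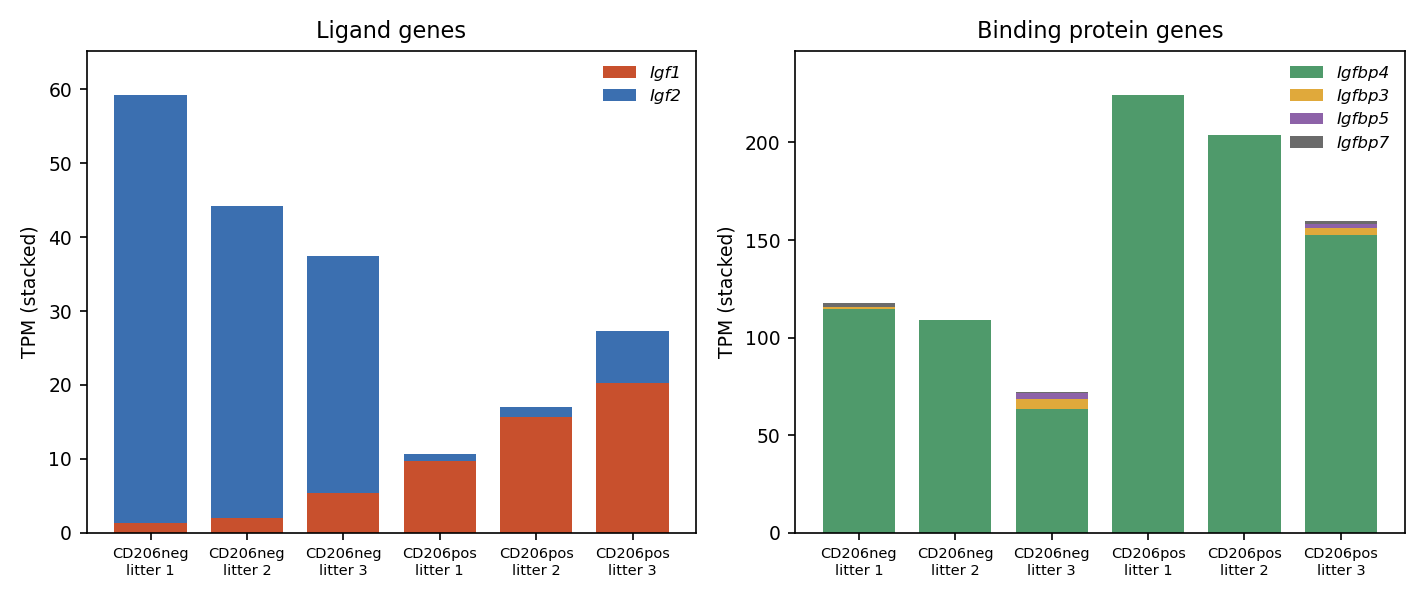
TPM of the ligand genes (left) and of the 4 binding protein genes (right), stacked, in each of the 6 libraries on the x axis. Igf2 makes up most of the ligand bar in CD206neg and Igf1 in CD206pos, and Igfbp4 makes up nearly all of the binding protein bar throughout.

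Neither receptor gene was called. Igf1r (ENSMUSG00000005533.10, GRCm38 chromosome 7, 67952827 to 68233668, plus strand), the signalling receptor for both ligands, lay at 35.0, 35.6 and 26.1 CPM in CD206neg and at 22.8, 20.8 and 21.5 CPM in CD206pos (litters 1, 2 and 3). All 3 CD206pos libraries lay below all 3 CD206neg libraries. The means were 32.2 ± 5.30 and 21.7 ± 1.02 CPM (SD, n = 3), and the log2 fold change was -0.57 ± 0.23 (SE; unadjusted p = 0.037, adjusted p = 0.24, edgeR). The adjusted p for Igf1r lay between 0.17 and 0.70 over the 18 alternatives.

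Igf2r (ENSMUSG00000023830.13, GRCm38 chromosome 17, 12682406 to 12769664, minus strand), the scavenging receptor for IGF2, was at 6.80, 3.58 and 14.1 CPM in CD206neg and at 10.1, 6.75 and 12.1 CPM in CD206pos. The groups overlapped, and Igf2r was higher in CD206pos in litters 1 and 2 and lower in litter 3, whose 2 libraries had the highest levels. Its log2 fold change was 0.24 ± 0.53 (SE; adjusted p = 0.89, edgeR), and it turned to -0.11 without CD206neg replicate 2 (adjusted p = 0.97). Per length Igf1r was the higher receptor transcript in CD206neg replicates 1 and 2, at 6.43 and 6.85 TPM against 2.23 and 1.23 TPM for Igf2r, while in CD206neg replicate 3 they were at 4.99 and 4.78 TPM. The means were 6.09 ± 0.976 and 3.77 ± 0.0084 TPM for Igf1r and 2.75 ± 1.84 and 2.97 ± 0.808 TPM for Igf2r in CD206neg and CD206pos (SD, n = 3). The share of Igf1r in the summed TPM of both receptors was 70.1% ± 17.3 in CD206neg and 56.4% ± 6.77 in CD206pos (SD, n = 3), a difference smaller than the SD of CD206neg.

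The binding protein genes were led by Igfbp4 (ENSMUSG00000017493.12, GRCm38 chromosome 11, 99041244 to 99054392, plus strand), whose product holds IGFs away from the receptor until a protease cuts it. By litter (1, 2 and 3), its levels were 164.0, 149.0 and 87.1 CPM in CD206neg against 357.2, 296.8 and 229.1 CPM in CD206pos. The groups did not overlap, and litter 3 had the lowest level in both. Igfbp4 rose 2.21-fold, from 133 ± 40.8 to 294 ± 64.1 CPM (SD, n = 3; log2 fold change 1.14 ± 0.26, SE; adjusted p = 0.044, edgeR). Within litters 1, 2 and 3 it was 2.18-fold, 1.99-fold and 2.63-fold higher. The call for Igfbp4 was lost with library totals as the only scaling (adjusted p = 0.054), whichever library was left out (adjusted p from 0.059 to 0.16) and without litter 1, 2 or 3 (adjusted p = 0.13, 0.34 and 0.063). With the litter as a block the adjusted p was 0.0060. Per length Igfbp4 was the highest of the 10 genes in every library, at 95.7 ± 28.2 TPM in CD206neg and 194 ± 37.0 TPM in CD206pos, and it made up 87.5% to 100% of the summed TPM of the 4 binding protein genes.

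The other 3 binding protein genes had few reads. Of the reads of Igfbp3 and Igfbp5, 91.9% and 99.4% lay in litter 3, and of those of Igfbp7 48.5% did. Igfbp3 (ENSMUSG00000020427.11, GRCm38 chromosome 11, 7206086 to 7213923, minus strand), the main carrier of IGFs in blood, had 14, 0 and 92 reads in CD206neg (litters 1, 2 and 3) and 0, 0 and 67 in CD206pos. Igfbp5 (ENSMUSG00000026185.8, GRCm38 chromosome 1, 72857932 to 72874884, minus strand), whose product binds to extracellular matrix, had 0, 1 and 100 reads in CD206neg and 0, 0 and 65 in CD206pos. Both genes were thus near or at 0 in litters 1 and 2 and at 3.75 to 5.63 CPM in both populations of litter 3. Igfbp7 (ENSMUSG00000036256.13, GRCm38 chromosome 5, 77349240 to 77408041, minus strand), which encodes a distant relative that binds IGFs weakly, had 16, 1 and 5 reads in CD206neg and 0, 0 and 11 in CD206pos, and 7.03% of its exonic bases overlap Polr2b and were not counted. Igfbp3 passed the filter and had a log2 fold change of -0.61 ± 2.11 (SE; adjusted p = 0.94, edgeR), which turned to 1.74 without CD206neg replicate 3 (adjusted p = 0.85). For Igfbp3 no difference between the populations was detectable with this spread between litters, and Igfbp5 and Igfbp7 were not tested.

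Some stromal genes were also highest in litter 3. Of the 10 mesenchymal stroma markers, 5 had both litter 3 libraries above the other 4 libraries (Col1a1, Col1a2, Col3a1, Acta2 and Tagln, the last with 7 reads in all). The collagen gene Col1a1 was at 17.5 and 18.7 CPM in CD206neg and CD206pos of litter 3 and at 0 to 0.793 CPM in the other 4 libraries. Col3a1, which encodes another fibrillar collagen, was at 30.3 and 30.7 CPM in litter 3 and at 0 to 0.976 CPM in the other 4. Col1a2 was at 13.9 and 6.93 CPM in litter 3 and at 0 to 2.12 CPM elsewhere. Acta2, which encodes smooth muscle actin, was at 15.8 and 12.4 CPM in litter 3 but also at 9.79 CPM in CD206neg replicate 1. The other 5 markers did not follow litter 3 in both populations. Pdgfrb, a receptor of pericytes and fibroblasts, was highest in CD206neg replicate 2, at 8.85 CPM against 2.31 and 2.37 CPM in litter 3. Dcn, a small proteoglycan gene, and Postn, a matrix protein gene, were higher in CD206pos replicate 1 (6.47 and 3.23 CPM) than in CD206pos replicate 3 (1.96 and 1.73 CPM). Pdgfra and Lum had 0 reads in CD206pos replicate 3. In edgeR's test 0 of the 7 tested mesenchymal stroma markers were called between the populations, with 0 at an unadjusted p under 0.05, and DESeq2 and limma-voom also called 0. Of the 10 markers, 6, 5 and 0 had no read in CD206neg replicates 1, 2 and 3 and 4, 4 and 2 had none in CD206pos replicates 1, 2 and 3. The part of stromal RNA in the Igfbp3 and Igfbp5 values was not tested. The differences in Igf1 and Igf2 were larger without litter 3, with log2 fold changes of 3.02 (adjusted p = 0.033) and -5.39, whereas Igfbp4 was at 1.03 without it.

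**Figure D3:**
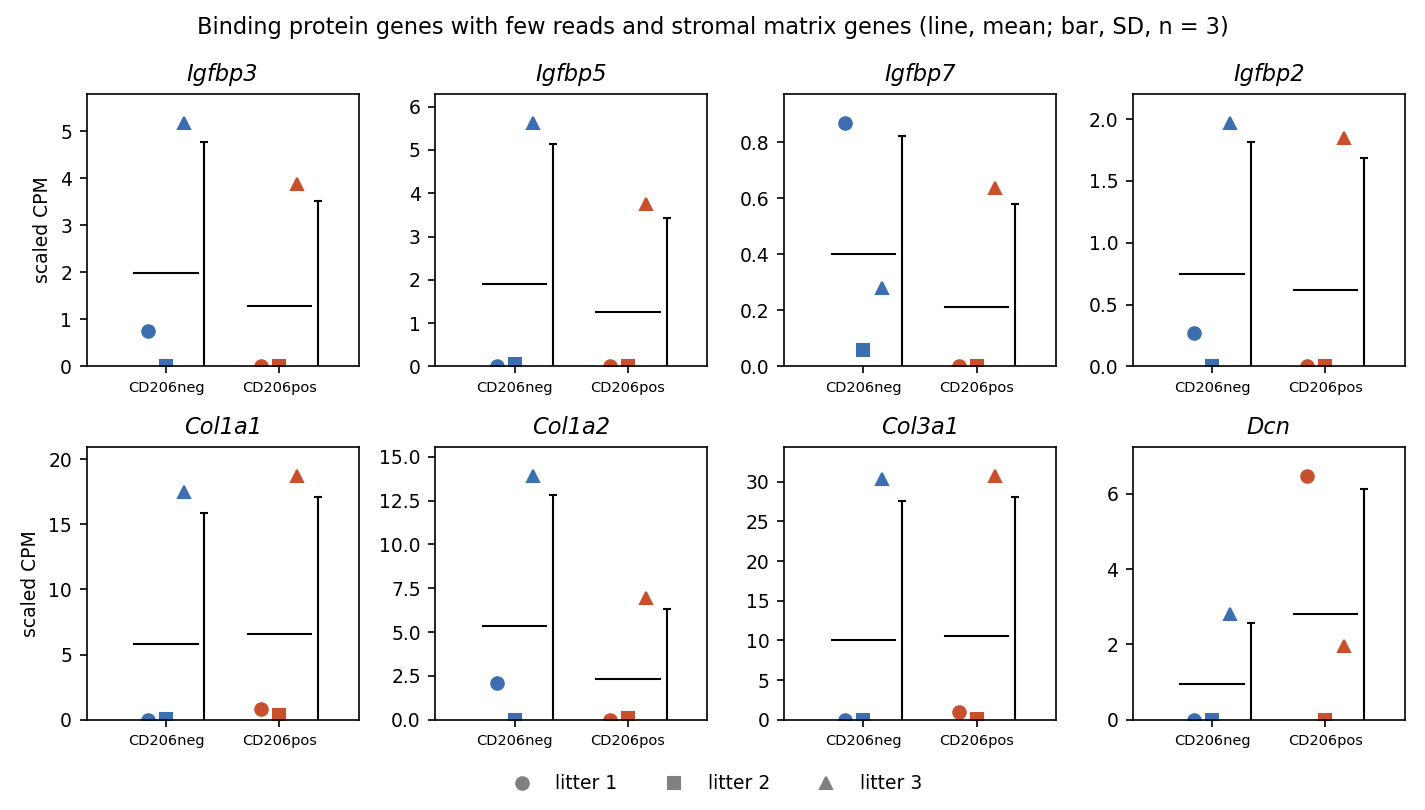
Scaled CPM of the binding protein genes with few reads (top row) and of 4 stromal matrix genes (bottom row) in each library, with symbols for litters 1 to 3, the mean as a line and the SD as a bar (n = 3). Igfbp3, Igfbp5, Col1a1 and Col3a1 are highest in the 2 libraries of litter 3, and Dcn is highest in CD206pos of litter 1.

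Of the adaptors, Irs2 was the one detected. Irs2 (ENSMUSG00000038894.7, GRCm38 chromosome 8, 10984681 to 11008458, minus strand), which couples the IGF1 and insulin receptors to PI3 kinase, was at 4.40, 4.80 and 8.11 CPM in CD206neg and at 6.53, 9.09 and 8.66 CPM in CD206pos (litters 1, 2 and 3). It was higher in CD206pos in all 3 litters but the groups overlapped, and the log2 fold change was 0.49 ± 0.44 (SE; adjusted p = 0.66, edgeR). Irs1 (ENSMUSG00000055980.2, GRCm38 chromosome 1, 82233101 to 82291416, minus strand), its close relative, had 2 reads in CD206neg replicate 3, 1 read in CD206pos replicate 3 and 0 in the other 4 libraries. This is at or under the level of 3 reads, so no ratio is given. Of the exonic bases of Irs1, 30.9% are shared with Gm9747 on the other strand, where reads were not counted, and Gm9747 had 0 reads.

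**Figure D4:**
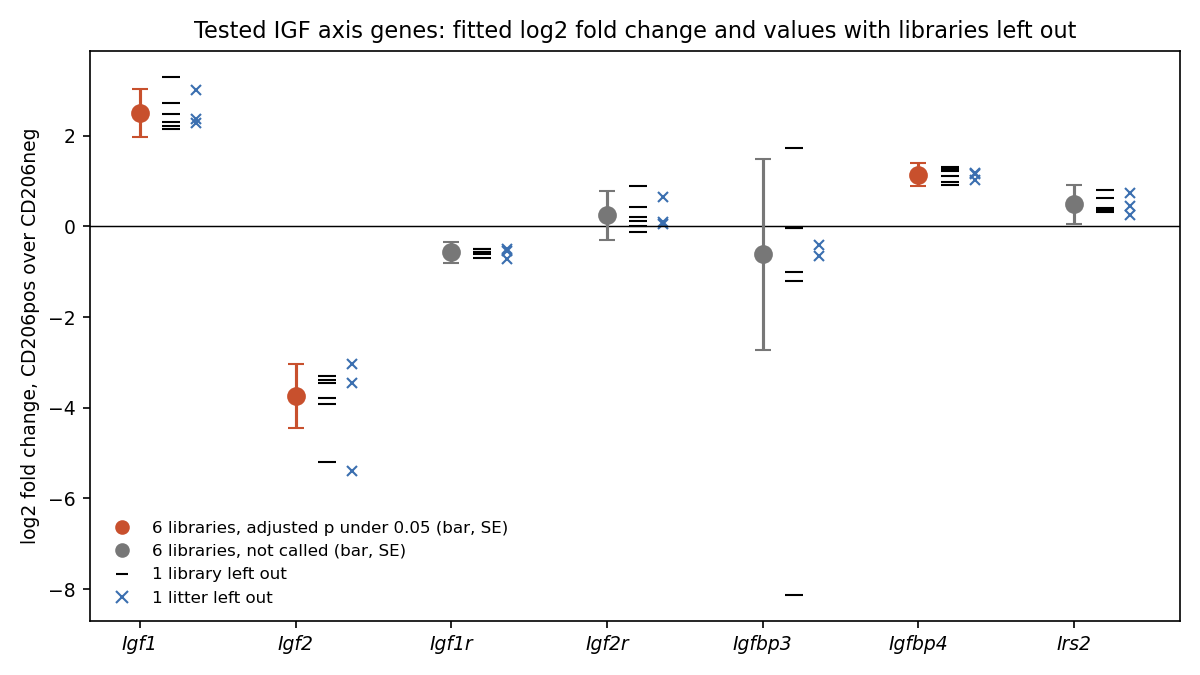
Log2 fold change of CD206pos over CD206neg for the 7 tested genes, with circles for the 6-library fit (bar, SE), dashes for fits without 1 library and crosses for fits without 1 litter. Igf1, Igf2 and Igfbp4 keep their direction in every one of these fits, and Igfbp3 spreads from -8.13 to 1.74, where the lowest value is set against CD206pos libraries without a read and depends on the fit's prior count.

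Other genes of the axis were taken from a list of 22. Of these, 11 had no read in any library, among them the insulin genes Ins1 and Ins2, the binding protein gene Igfbp1, the acid-labile subunit gene Igfals and the genes Pappa and Pappa2, whose proteases cut IGF binding proteins. Of the 7 tested, edgeR called 0, with 2 at an unadjusted p under 0.05. DESeq2 called both of these lower (H19 and Igf2bp2) and limma-voom called 0. The median log2 fold change of the 7 was -0.025, and that of all genes tested was -0.0043. H19, the imprinted non-coding RNA gene beside Igf2, was at 46.9, 29.0 and 58.5 CPM in CD206neg and at 8.85, 12.4 and 22.3 CPM in CD206pos. Its groups did not overlap, and its log2 fold change was -1.62 ± 0.40 (SE; adjusted p = 0.057, edgeR). H19 passed with the litter as a block, the looser filter and the stricter filter (adjusted p = 0.030, 0.030 and 0.024) and without CD206pos replicate 3 (adjusted p = 0.036). Igf2bp2, which encodes an RNA-binding protein named for its binding of Igf2 mRNA, was at 93.6, 48.1 and 44.1 CPM in CD206neg and at 21.2, 28.4 and 24.4 CPM in CD206pos. Its groups did not overlap either (log2 fold change -1.33 ± 0.32, SE; adjusted p = 0.051, edgeR), and it passed with library totals as the only scaling (adjusted p = 0.043), upper-quartile scaling (0.048), the looser filter (0.028), the stricter filter (0.022) and no robust estimation (0.049). The adjusted p over the 18 alternatives ran from 0.0016 to 0.28 for H19 and from 0.0014 to 0.25 for Igf2bp2. The related genes Igf2bp1 and Igf2bp3 were not called. In CD206neg and CD206pos, Igf2bp1 was at 583 ± 48.5 and 499 ± 55.0 CPM (SD, n = 3; adjusted p = 0.47, edgeR). Igf2bp3 was at 206 ± 20.7 and 225 ± 38.4 CPM (SD, n = 3; adjusted p = 0.78, edgeR). The insulin receptor gene Insr was at 17.8 ± 6.51 and 17.5 ± 1.44 CPM (SD, n = 3; adjusted p = 0.98, edgeR).

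Of 34 genes for signalling below the receptors, such as PI3 kinase subunits, Akt kinases and Foxo factors, 32 were tested. EdgeR called 0 of them, with 4 at an unadjusted p under 0.05. DESeq2 called 2, limma-voom called 0, and the fit with the litter as a block called Gsk3b and Inpp5d. The median log2 fold change was -0.068. The 2 with the smallest p were Gsk3b, a kinase that Akt inhibits, at 138 ± 27.9 and 211 ± 25.9 CPM (SD, n = 3; log2 fold change 0.61 ± 0.18, SE; adjusted p = 0.12, edgeR), and Sh2b2, an adaptor of the insulin receptor, at 41.7 ± 14.5 and 22.2 ± 3.57 CPM (log2 fold change -0.91 ± 0.29, SE; adjusted p = 0.14, edgeR). DESeq2 called these 2 genes (adjusted p = 0.036 and 0.049). Grb10, an imprinted gene for an inhibitory adaptor of the IGF1 and insulin receptors that was chosen after its values were seen, was at 14.5, 24.5 and 52.6 CPM in CD206neg and at 8.61, 7.32 and 62.6 CPM in CD206pos, highest in litter 3 in both populations.

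Because the receptor encoded by Igf2r also sorts lysosomal enzymes, 11 genes of mannose 6-phosphate sorting were examined. Of these 11 tested genes 2 rose and 0 fell, where 2.97% of all genes tested were called higher and 1.90% lower. The median log2 fold change of the 11 was 0.29. The 2 that rose encode core subunits of retromer, the complex that returns sorting receptors from endosomes. Vps29, which encodes another core subunit, was not called (log2 fold change 0.44 ± 0.17, SE; unadjusted p = 0.030, adjusted p = 0.22, edgeR). Vps35 rose 1.66-fold, from 464 ± 26.5 to 770 ± 19.3 CPM (SD, n = 3; log2 fold change 0.73 ± 0.12, SE; adjusted p = 0.010, edgeR). Vps26a rose 1.60-fold, from 274 ± 18.0 to 438 ± 52.3 CPM (log2 fold change 0.68 ± 0.14, SE; adjusted p = 0.029, edgeR). The call for Vps35 was lost without CD206neg replicate 2 or CD206pos replicate 2 and without litter 2 or 3 (adjusted p between 0.052 and 0.25). The call for Vps26a was lost with library totals as the only scaling (adjusted p = 0.051), without any one library other than CD206pos replicate 1 and without any one litter (adjusted p between 0.069 and 0.33). The smaller mannose 6-phosphate receptor gene M6pr was at 324 ± 12.9 and 346 ± 21.3 CPM (SD, n = 3; adjusted p = 0.79, edgeR). Per length M6pr was far above Igf2r, at 247 ± 7.90 and 242 ± 24.6 TPM.

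**Figure D5:**
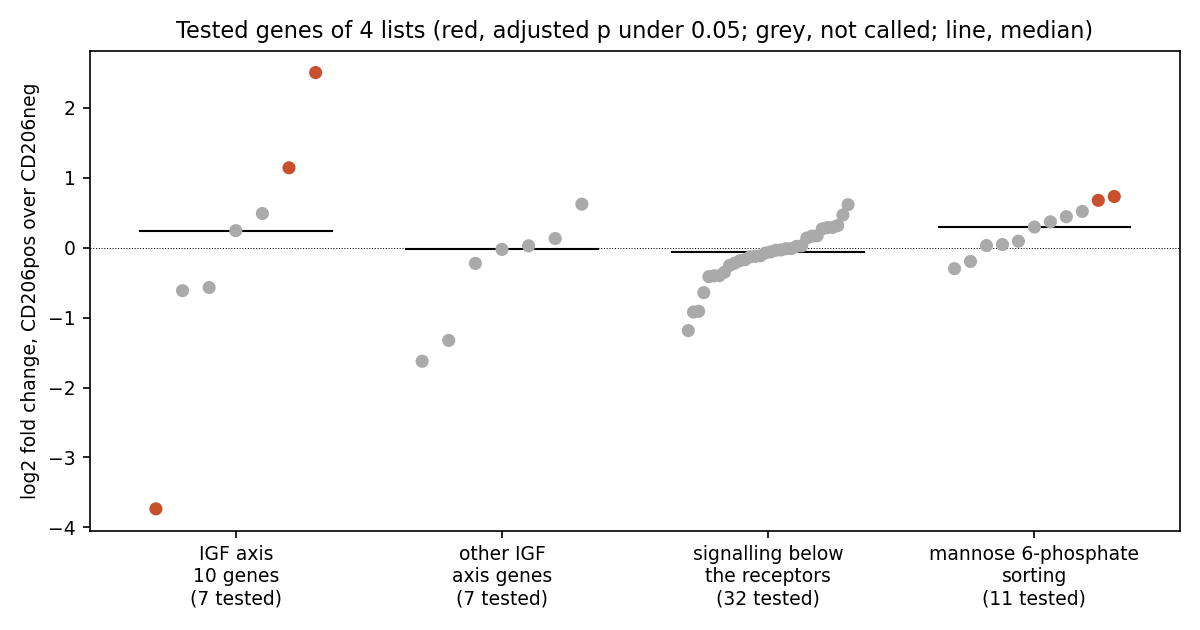
Log2 fold change of CD206pos over CD206neg for the tested genes of 4 lists, ordered within each list, with red for an adjusted p under 0.05, grey for genes not called and a line at the median. The called genes are Igf1, Igfbp4 and Igf2 among the 10 genes of the axis, and Vps35 and Vps26a in the sorting list.

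For the 3 called genes, the genes most alike over the 6 libraries were sought among 8141 tested genes with a mean of at least 10 CPM. Likeness was the root mean square difference of log2 levels after each gene was centred on its own mean, a description over libraries that include both populations. Nearest to Igf1 were the crystallin gene Cryba4 (0.19), the haemochromatosis gene Hfe (0.26) and the transporter gene Abca9 (0.28). Hfe was at 20.2, 26.8 and 47.5 CPM in CD206neg and at 113, 178 and 215 CPM in CD206pos, so that it shared with Igf1 the highest level in litter 3 of each population. Nearest to Igf2 were the UDP-glucose receptor gene P2ry14 (0.44), the cytochrome gene Cyp4f18 (0.53) and the carbonic anhydrase gene Car2 (0.75). P2ry14 was at 19.7, 22.0 and 21.5 CPM in CD206neg and at 0.305, 0.915 and 2.43 CPM in CD206pos. Nearest to Igfbp4 were the endocytic recycling gene Ehd1 (0.17), Lactb2 (0.19) and the immediate early gene Ier3 (0.19). Ehd1 was at 135, 141 and 65.7 CPM in CD206neg and at 351, 296 and 243 CPM in CD206pos, lowest in litter 3 of each population as Igfbp4 was.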

How the data were processed

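The authors deposited raw read counts per gene for each of 6 libraries, made with featureCounts 1.5.2 on exons of GENCODE M14, per the file headers, with no option for strand, overlapping genes or multi-mapping reads. The submitters' processing notes also name STAR 2.3 and the build GRCm38.p5. Symbols came from GENCODE M21 by gene identifier (51633 of 51912 matched). Counts were filtered with filterByExpr, scaled by TMM and tested with edgeR 4.0.16 (robust quasi-likelihood F test, no litter block) in R 4.3.3. The SE is the log2 fold change divided by the square root of F. TPM used the exon length in the files. DESeq2 1.42.0 and limma-voom (limma 3.58.1) were alternatives, beside the litter block, other scalings and filters, and leaving out libraries and litters. Replicate numbers are the AGM numbers of the titles, and the series names 3 independent litters, so same-numbered libraries were read as 1 litter. Their deviations from group means correlated at 0.090, 0.040 and 0.18 over genes. Libraries with different numbers correlated at -0.15 to 0.062, so the value for litter 2 did not stand above all of these. The sources used here name no molecular identifiers to tell PCR copies apart, so limits from read counts cover counting error only. On simulated counts (12096 genes) edgeR recovered 44 of 50 genes changed 4-fold and 26 of 50 changed 2-fold. It recovered 41 of 50 changed 8-fold and 49 of 50 changed 16-fold, and 9 of its 169 calls were false. The changed genes were drawn above a minimum mean level that Igfbp3 did not reach, and no litter effect was simulated. The 10 genes, the lists and the tests were chosen with earlier results of these data known. Named genes are the 10, from each other list the called genes of smallest p, at most 4 in each direction (or the 2 of smallest p where none was called), defining markers by their levels, and the 3 most alike tested genes of each called member. Insr, M6pr, Inpp5d, Igf2bp1, Igf2bp3, Vps29 and Gata2 fall outside this rule and were chosen after their values were seen, as were the markers singled out among those not called. Marker lists were used to check the labels. Protein sequences were not used here.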

Additional observations from a re-analysis of the deposited data

How the results depend on the processing

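With 12668 genes tested, edgeR called 617 and DESeq2 called 1210. Leaving out a library or litter gave 3 to 561 calls, with 3 calls without litter 2, 190 without CD206neg replicate 2 and 238 without CD206pos replicate 2. Of the 10 IGF axis genes 3 were called, and between 0 and 2 in the fits that left out a library or litter. In the 6 such fits with 0 called in edgeR's test, 3 or 4 of them had an unadjusted p under 0.05. Fits with 4 or 5 libraries have less power, and this was not separated from the effect of the libraries left out. With library totals as the only scaling 2 of the 10 were called, and with every other scaling, filter and test, including the replicate block for litter, the same 3 genes were called. The block moved the calls over all genes to 699 and changed no call of the 10. In 124 refits of the 7 tested members there were 2 changes of direction, Igf2r at -0.11 and Igfbp3 at 1.74, both with a CD206neg library left out (ranges with a library or litter left out, -0.11 to 0.89 for Igf2r and -8.13 to 1.74 for Igfbp3). Igfbp3 could not be fitted under the stricter filter or without litter 3. Among markers, Krt8 changed direction to 1.63 with the replicate block, 1.64 with limma-voom, 3.13 without CD206neg replicate 3 and 2.53 without litter 3, and Hbb-y to -0.027 with the block, -0.79 without CD206pos replicate 3 and -0.70 without litter 3 (ranges with a library or litter left out, -1.10 to 3.13 for Krt8 and -0.79 to 0.89 for Hbb-y). The share of Igf1r among the receptors in CD206pos was 56.4% by TPM and 69.6% by raw counts without length. No cause was tested for these changes.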
